A study of Mus musculus with 18 samples.

Results

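Regulatory T cells (Treg) and CD8+ T cells of the spleen were compared directly, on 3 arrays of each. A probe entered the comparison if it had a gene name and a detection p under 0.05 on 3 or more of the series' 18 arrays, which left 22409 of 46237 probes and 14581 of 21946 named genes. The cells came from the spleens of female C57BL/6 mice that carried the Foxp3-GFP-DTR-CD90.1 allele, a Foxp3 reporter, and bore a B16F10 melanoma. B16F10 is a transplantable mouse melanoma line, and 50000 of its cells had been given under the skin of every mouse, so that no group is free of tumour. Spleens were taken when tumours were about 10 mm wide. Spleen Treg were gated as CD4+CD25+Foxp3+ and free of CD8 and CD11b, and spleen CD8 cells as CD8+ and free of CD4 and CD11b. Conventional CD4+ T cells of the same spleens (Tconv, CD4+Foxp3- and free of CD8 and CD11b) and the Treg and CD8 cells of the tumours, 3 arrays each, serve as points of reference. Cells were pooled before sorting, the mice's ages are not stated, and no label says that replicates came from separate animals, so the p-values cover only the spread between these arrays, which may be technical.

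Treg are CD4+ T cells that hold other immune cells in check. They depend on the transcription factor Foxp3 and on interleukin-2, which signals through STAT5, and they carry inhibitory and costimulatory receptors such as CTLA-4, GITR and OX40. CD8+ T cells recognise antigen on MHC class I, and once they have become memory or effector cells they kill targets with granule proteins, secrete chemokines and carry receptors shared with natural killer (NK) cells. In the spleen, resting CD8+ cells also include naive cells, which keep homing receptors and the interleukin-7 receptor.

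Values are log2 intensities after background correction and quantile normalization, with a floor near 4, and a gene is read from its brightest probe that passed the filter unless another is named. A difference is the mean of the 3 Treg arrays minus the mean of the 3 CD8 arrays, ± its standard error. A gene was called at a Benjamini-Hochberg adjusted p under 0.05 in a limma fit over all 18 arrays. Where a gene was detected on no array of a group, the fold is given as a lower bound ("at least"), measured against no less than the lowest signal that its arrays detected, and a log2 difference printed for such a gene is the fitted value, which depends on the floor. Between 42.4 and 45.2 percent of probes were detected on the Treg arrays and 38.0 to 40.3 percent on the CD8 arrays. Every group had 1 array on each of the 3 BeadChips and kept its position there, and group and position cannot be told apart.

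Promoters are shown for a gene from each side of the comparison, because regulators of these cells have known motifs: Cish, higher in Treg, and Nkg7, higher in CD8 cells. Cish encodes an inhibitor of cytokine signalling that STAT5 is known to induce. Nkg7 encodes a membrane protein of cytotoxic granules. The 300 bases are RefSeq windows of GRCm38.p6, from 250 bases before to 50 bases after the gene's start, at chr9:107296409-107296708 on the plus strand for Cish and at chr7:43436888-43437187 on the plus strand for Nkg7. Capitals mark matches to TTCNNNGAA, the STAT motif, which reads the same on both strands, and to TGTGGT or its reverse ACCACA, the core of the RUNX motif.
Cish: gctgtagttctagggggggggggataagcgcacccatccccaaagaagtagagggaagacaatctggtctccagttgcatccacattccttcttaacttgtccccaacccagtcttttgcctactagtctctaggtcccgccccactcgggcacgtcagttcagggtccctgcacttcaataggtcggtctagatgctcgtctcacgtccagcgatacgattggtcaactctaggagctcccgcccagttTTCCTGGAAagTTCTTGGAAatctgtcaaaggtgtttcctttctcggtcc
Nkg7: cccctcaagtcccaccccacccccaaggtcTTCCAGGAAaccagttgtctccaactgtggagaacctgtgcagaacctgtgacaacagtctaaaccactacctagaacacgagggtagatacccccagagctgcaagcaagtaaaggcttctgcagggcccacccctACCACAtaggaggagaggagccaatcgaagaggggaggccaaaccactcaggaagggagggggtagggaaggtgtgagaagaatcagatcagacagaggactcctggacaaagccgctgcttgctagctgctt
The Cish window held 2 matches to the STAT motif, beginning at its bases 251 and 262, so at and just after the annotated start. The Nkg7 window held 1 match to the STAT motif, at base 31, and 1 to the RUNX motif, at base 168, and no match overlapped another. Among the 8558 measured genes with 1 window, 7.37% held the STAT motif and 13.2% the RUNX motif. The shares were 7.69% and 11.1% among the 117 such genes called higher in Treg, and 7.69% and 17.6% among the 91 called lower. TGTTTAC on either strand, a forkhead motif, was held by 2.91% of all, 1.71% of the higher and 2.2% of the lower genes. Of all 32851 RefSeq windows, 8.3%, 16.8% and 3.65% held the STAT, RUNX and forkhead motif. A match describes these letters and is not evidence of a bound site.

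Among the genes used for sorting, Cd4, Cd8b1 and Foxp3 separated the groups, Cd8b1 and Foxp3 on some of their probes only. Why their probes disagreed was not tested. Cd4 gave 8.12, 8.43 and 8.13 on the Treg arrays and 4.16, 4.27 and 4.40 on the CD8 arrays, where 1 of 3 detected it, a difference of 3.94 ± 0.17 (adjusted p = 1.81e-09). Cd8b1, a chain of the CD8 coreceptor, gave 6.57, 5.88 and 6.30 against 11.33, 11.11 and 10.89, a difference of -4.86 ± 0.42. A second Cd8b1 probe differed by -5.13 and another by 0.55, which did not pass the test. Foxp3 had 4 probes that did not behave alike: 1 of them gave 8.52, 8.24 and 8.27 in Treg against 4.19, 4.41 and 4.25 in CD8 cells, a difference of 4.06 ± 0.12, whereas the brightest differed by 0.49 ± 0.28 (adjusted p = 0.546). The remaining Foxp3 probes differed by -0.03 and -0.08. On the separating probe every Treg array lay above every CD8 and Tconv array, and on the others the groups overlapped. Neither Il2ra, the gene of CD25, nor Itgam, that of CD11b, rose far above the floor, with Treg values of 4.19 to 4.48 and 4.09 to 4.27, and Cd8a passed the filter on no probe. The T cell genes Thy1 and Cd3e differed by -0.03 ± 0.15 and 0.19 ± 0.11, neither past the test.

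In all, 388 genes (2.66%) differed, 229 (1.57%) higher and 159 (1.09%) lower in Treg than in CD8 cells. Over probes, 514 (2.29%) were called, 314 (1.40%) higher and 200 (0.892%) lower. The called genes had 1 direction on all 3 BeadChips and no overlap between the groups, 388 of 388. The arrays of the groups did not overlap for 17.1% of all genes. Groups that do not overlap always have 1 direction on every BeadChip. Since the genes were called from these same arrays, neither trait is separate evidence for them. Differences of at least 2-fold were measured for 173 of the higher and 120 of the lower genes. Of the called genes 47 were detected on no CD8 array and 20 on no Treg array. A further 58 genes were called on a dimmer probe but not on their brightest. The median difference was 1.39 among higher, -1.43 among lower and -0.02 over all genes.

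**Figure D1:**
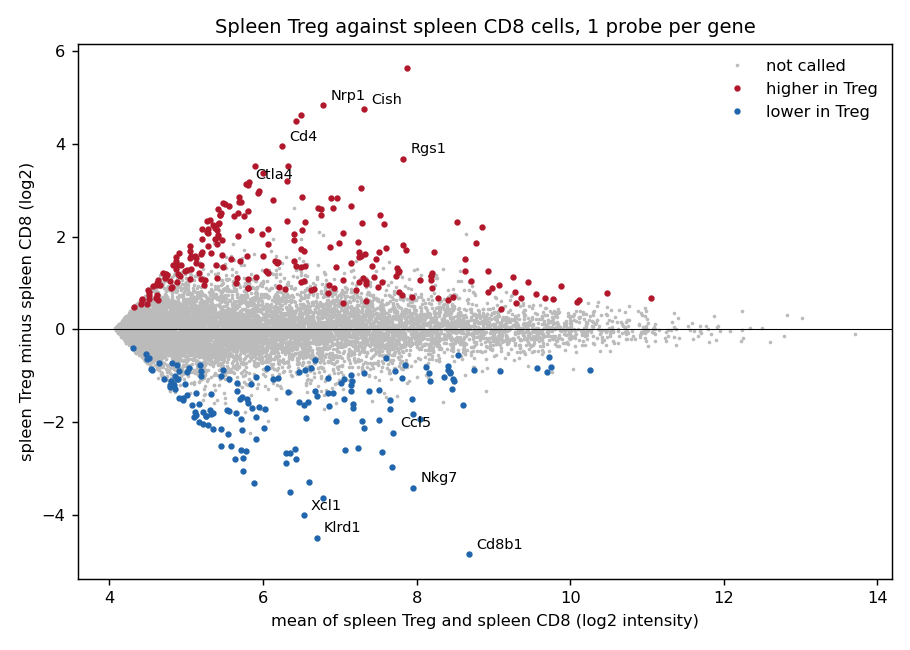
Difference between spleen Treg and spleen CD8 cells (log2, vertical axis) against the mean of the 2 groups (log2 intensity, horizontal axis), each point a gene read by its brightest probe. Red points are the 229 genes called higher in Treg and blue points the 159 called lower, which include low as well as high levels.

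The largest rise in Treg belonged to Gm4956, which RefSeq lists as a transcribed pseudogene on chromosome 1. It gave 10.69, 10.70 and 10.69 in Treg against 6.06, 4.10 and 5.03 in CD8 cells, a difference of 5.63 ± 0.44, and its second probe differed by 3.76. Next came Nrp1, neuropilin-1, a receptor known from Treg of thymic origin, with 9.20, 9.19 and 9.22 against 4.30, 4.74 and 4.08, a difference of 4.83 ± 0.18. The Treg arrays hardly differed among themselves for Nrp1, and its second probe differed by 5.13. Cish followed with 9.97, 9.71 and 9.37 against 5.47, 4.72 and 4.63, a difference of 4.74 ± 0.40. Tnfrsf4, the costimulatory receptor OX40, gave 8.93, 8.86 and 8.65 against 4.13, 4.19 and 4.25 and was at least 23.6-fold higher. Tiam1, an activator of the small GTPase Rac, gave 8.71, 8.81 and 8.51 against 4.08, 4.38 and 4.11 and was at least 20.9-fold higher. CD8 cells thus had no detected level of OX40 or Tiam1 on any array, in contrast to Cish and Rgs1, which were detected on all 3.

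Rgs1, a brake on G protein signalling from chemokine receptors, was higher by 3.68 ± 0.30, with 9.78, 9.67 and 9.54 against 6.70, 5.95 and 5.31. Izumo1r, known in mouse T cells as folate receptor 4, gave 7.82, 7.66 and 7.52 against 4.15, 4.13 and 4.13, at least 10.7-fold higher. The secreted matrix protein gene Ecm1 was higher by 3.53 ± 0.44, though its second probe, with 0.75, missed the test. Ikzf2, the transcription factor Helios, gave 7.69, 7.56 and 7.82 against 4.15, 4.29 and 4.50, a difference of 3.38 ± 0.23. Ctla4, the inhibitory receptor that competes for CD28 ligands, gave 7.31, 7.42 and 7.36 against 4.19, 4.23 and 4.31, at least 8.55-fold higher (adjusted p = 6.61e-08). The Treg values of Ctla4 lay close together, and none of the CD8 arrays detected the gene. The remaining large rises were the tetraspanin Cd81 (3.20 ± 0.50), the class I myosin Myo1e (3.17 ± 0.29), Tbc1d4, a regulator of glucose transporter traffic (3.14 ± 0.47), and the actin capping protein Capg (3.04 ± 0.37). A dimmer Tbc1d4 probe, with 0.99, missed the test and another passed it with 0.95.

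**Figure D2:**
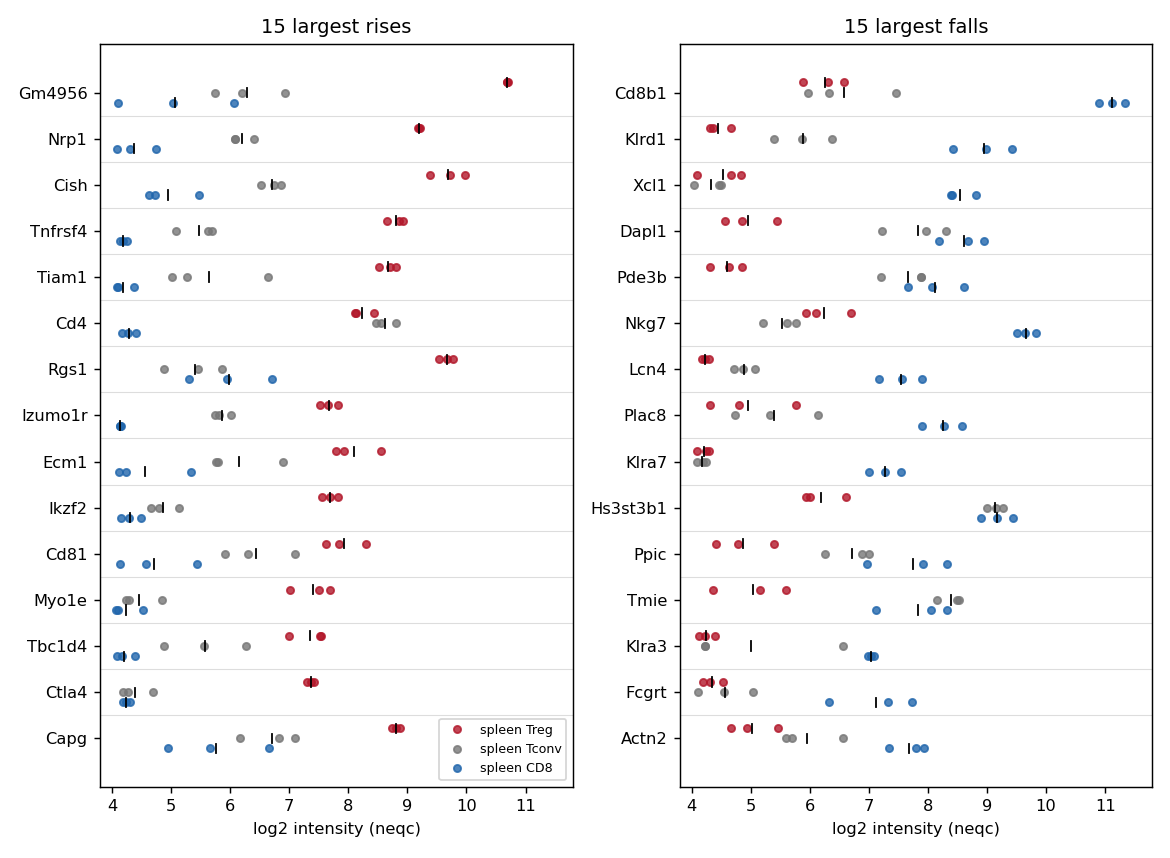
Log2 intensity (horizontal axis) on each array for the 15 genes with the largest rises (left) and the 15 with the largest falls (right) in spleen Treg against spleen CD8 cells, with spleen Tconv for reference. Points are arrays, 3 in each group, and a vertical tick is the group mean. Treg and CD8 points overlap for none of these genes, which holds for every called gene.

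The gene lists were counted next, with the shares of all genes called, 1.57% higher and 1.09% lower, for reference. The lists and their members were chosen with earlier results of these data known, so the counts are a description and not a test. Some counted genes, such as Ctla4 and Tnfrsf4, were detected on no CD8 array and entered the comparison through other arrays. Of the 20 measured Treg core genes of 22, 12 were higher and none lower in Treg by their brightest probe, with a median difference of 1.97. Besides those given above these included Tnfrsf18, the receptor GITR, with 8.64, 8.76 and 8.73 against 6.66, 6.16 and 6.50, a difference of 2.27 ± 0.21, and its second probe differed by 2.20. Foxp3 and Swap70 passed on another probe only, both upward, and Itgae, given below, downward. Among 19 measured genes of activated and tissue Treg, of 22, 9 were higher and none lower by their brightest probe, with a median of 1.04. Samsn1 passed on another probe only. Cd83, a surface protein of activated lymphocytes, gave 7.77, 6.62 and 7.83 against 4.61, 4.69 and 4.12, a difference of 2.93 ± 0.34. Maf, a transcription factor of Il10 expressing T cells, gave 6.76, 6.66 and 7.09 against 4.06, 4.17 and 4.13, at least 6.02-fold higher. Cd200, an inhibitory ligand, was higher by 2.83 ± 0.38, Klrg1, a receptor of differentiated lymphocytes, by 2.01 ± 0.36, and Icos, a costimulatory receptor, by 1.35 ± 0.18. Il10, an immunosuppressive cytokine, was low but detected on all Treg arrays, with 4.75, 4.99 and 5.56 against 4.12, 4.06 and 4.25, at least 1.81-fold higher. Its call ended under 4 of 11 other settings, without background correction, with offset 50, with the deposited value table and with only the arrays compared (adjusted p up to 0.148). The second Maf probe differed by 0.97 and missed the test.

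**Figure D3:**
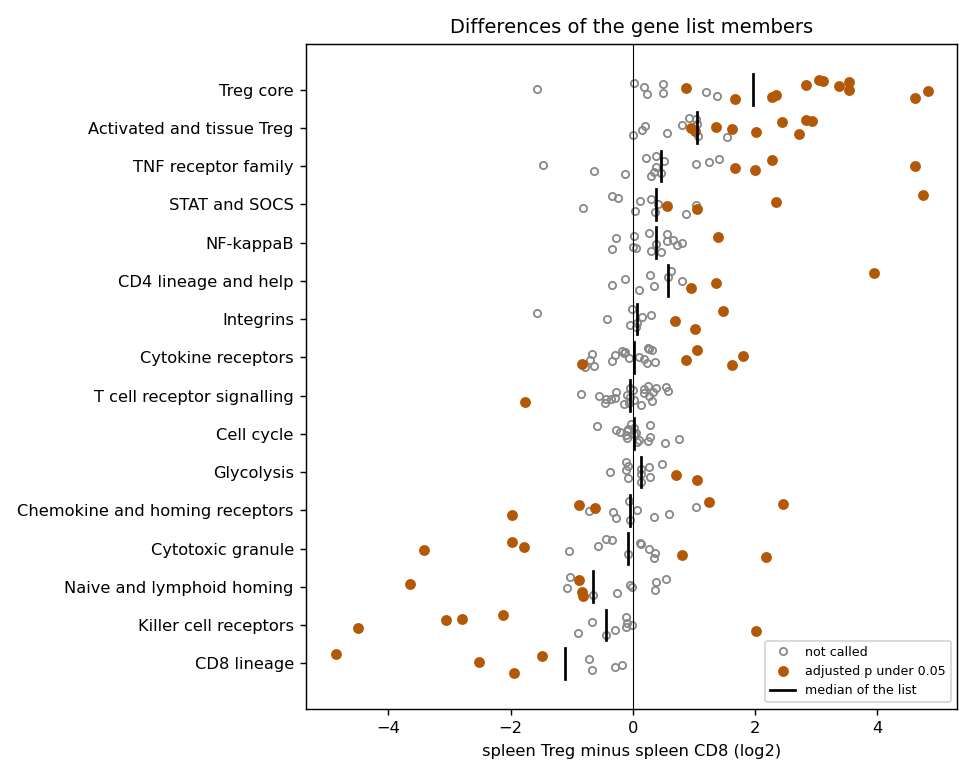
Difference between spleen Treg and spleen CD8 cells (log2, horizontal axis) for each measured member of 16 gene lists, each read by its brightest probe. Filled points were called, open points were not, and the black line is the list's median, highest for Treg core genes at 1.97 and lowest for CD8 lineage genes at -1.11.

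Some genes of the STAT, cytokine receptor and TNF receptor lists were higher in Treg. Of 14 measured STAT and SOCS genes, 4 were higher and none lower: Cish, Socs2, Stat5a and Stat3. Socs2, another cytokine-induced inhibitor, gave 6.50, 6.42 and 6.40 against 4.07, 4.10 and 4.12, at least 4.58-fold higher. Stat5a differed by 1.04 ± 0.23 and Stat3 by 0.56 ± 0.12. Of 22 measured cytokine receptor genes, 4 were higher and 1 lower. Il2rb, the shared beta chain of the interleukin-2 and interleukin-15 receptors, differed by 0.86 ± 0.20, Il10ra by 1.04 ± 0.22, Tgfbr1 by 1.62 ± 0.36 and the decoy receptor gene Il1r2 by 1.80 ± 0.42, with Il1r2 detected on no CD8 array and at least 3.25-fold higher. In the TNF receptor list Tnfrsf1b passed only on a probe other than its brightest. By the brightest probe 4 of 17 measured genes were higher and none lower. Beside OX40 and GITR these were Tnfrsf9 (4-1BB), with 1.68 ± 0.28, and Tnfsf11, the ligand RANKL, with 1.99 ± 0.25. Of 15 NF-kappaB genes only Nfkb1 passed by its brightest probe, with 5.51, 5.30 and 5.74 against 4.11, 4.09 and 4.20, at least 2.42-fold higher, and Nfkbia passed on another probe. The smaller differences here were sensitive to single arrays: when each of the 6 arrays was left out in turn, Il1r2 lost its call in 5 of 6 cases, Il2rb, Stat3, Stat5a and Tgfbr1 in 4 and Il10ra in 3. Their highest adjusted p was 0.165 for Il1r2 and 0.101 for Stat5a (both without Treg replicate 1), 0.149 for Il2rb (without Treg replicate 2), 0.111 for Stat3 (without Treg replicate 3), 0.109 for Tgfbr1 (without Treg replicate 1) and 0.0966 for Il10ra (without Treg replicate 2). Nfkb1 lost its call without Treg replicate 3, with 0.0511.

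Adhesion and migration genes split between the cell types. Ccr6, a receptor for CCL20, gave 6.42, 7.21 and 6.90 in Treg against 4.62, 4.41 and 4.14, a difference of 2.45 ± 0.29, and Ccr4 differed by 1.25 ± 0.26. Ccr8 was detected on all Treg arrays and no CD8 array, at least 1.98-fold higher, and missed the test (adjusted p = 0.055). In the other direction, Cxcr6, a receptor of memory and tissue CD8+ cells, gave 6.31, 5.99 and 5.59 in Treg against 7.85, 8.31 and 7.67, a difference of -1.98 ± 0.25, and Ccr7 and Ccr9 differed by -0.89 and -0.62. Ccr9 was detected on no Treg array and was at least 1.53-fold lower there. Thus 2 of 14 measured genes of chemokine and homing receptors were higher and 3 lower in Treg. Of 11 integrin genes 3 were higher and none lower by the brightest probe: Itga6 (1.48 ± 0.31), Itgb8, a chain that activates TGF-beta (1.02 ± 0.17), and Itgb1 (0.69 ± 0.13). Leaving out single arrays ended the calls of Ccr7 in 6 of 6 cases, Ccr4 and Ccr9 in 4, Itga6 in 3 and Itgb1 in 1. Their highest adjusted p was 0.123 for Ccr7 and 0.0795 for Ccr9 (both without CD8 replicate 2), 0.0886 for Ccr4 (without Treg replicate 3), and 0.0748 for Itga6 and 0.0571 for Itgb1 (without Treg replicates 2 and 1).

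Of 13 measured killer receptor genes of 17, 4 were lower in Treg than in CD8 cells and 1, Klrg1, was higher. Klrd1, the CD94 chain of NKG2 receptors, gave 4.67, 4.31 and 4.37 in Treg against 9.42, 8.99 and 8.43 in CD8 cells, a difference of -4.50 ± 0.25 (adjusted p = 4.26e-08). Klra7 and Klra3, of the Ly49 family of receptors for MHC class I, differed by -3.07 ± 0.26 and -2.79 ± 0.47. Klra7 was detected on no Treg array and was at least 8.16-fold lower there. Further probes of both genes lay near the floor and did not pass, and probes of this family of close relatives may share targets, which was not examined. Cd160, a receptor of killer lymphocytes, differed by -2.13. The other 8 were not called by their brightest probe, though Klrk1 passed on another. Klrc1, Klrc2 and Klrb1f were detected on no array of either group. Without any 1 of the 6 arrays Cd160 was no longer called, with adjusted p up to 0.137 (without Treg replicate 2).

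Nkg7 gave 6.70, 5.94 and 6.10 in Treg against 9.51, 9.64 and 9.83 in CD8 cells, a difference of -3.42 ± 0.24. Ctsw, the protease cathepsin W of cytotoxic cells, differed by -1.98 and Gzmm, granzyme M, by -1.78. The perforin gene Prf1 differed by -1.04 ± 0.33 on its brightest probe, which missed the test (adjusted p = 0.148), and by -1.54 ± 0.22 on a dimmer probe, which passed. Of 15 measured cytotoxic granule genes of 18, 3 were lower and 2 higher in Treg. The higher ones were Stx11, a syntaxin of granule release that other cells use too, with 7.51, 6.82 and 7.11 against 4.93, 5.52 and 4.47, and Srgn, the granule proteoglycan serglycin, with 0.80 ± 0.19. The measured granule genes therefore did not all move one way, and their median was -0.09. Gzma, Gzmb and Serpinb9 of this list passed the filter on no probe. Srgn lost its call without any 1 of the 6 arrays, with adjusted p up to 0.125 (without Treg replicate 3). Among 7 measured chemokine genes 2 were lower. Xcl1, the chemokine lymphotactin, gave 4.83, 4.08 and 4.67 against 8.39, 8.82 and 8.40, a difference of -4.01 ± 0.46, and Ccl5 gave 6.78, 6.43 and 6.53 against 8.39, 8.99 and 9.05, a difference of -2.23 ± 0.18. Ccl4 varied within CD8 cells, with 5.19, 7.99 and 7.67, and missed the test (adjusted p = 0.0515).

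Other large falls in Treg belonged to genes of diverse roles. Dapl1, a gene of unsettled function in T cells, gave 5.45, 4.86 and 4.56 against 8.95, 8.68 and 8.19, a difference of -3.65 ± 0.32. Pde3b, a phosphodiesterase that degrades cyclic AMP, gave 4.63, 4.85 and 4.31 against 7.66, 8.61 and 8.07, a difference of -3.51 ± 0.32. Pde3b contrasted with the other called genes of purine handling, the ATP-gated channel gene P2rx7 (2.75 ± 0.40) and the cyclic AMP responsive modulator gene Crem (1.61 ± 0.29), which were higher in Treg. Crem lost its call without background correction and with only the arrays compared, with adjusted p up to 0.117 and a difference down to 0.66. The lipocalin gene Lcn4 differed by -3.31, Plac8 by -3.28, the heparan sulfate sulfotransferase gene Hs3st3b1 by -2.98, the cyclophilin gene Ppic by -2.88 and Tmie, known from hair cells of the inner ear, by -2.80. Fcgrt, the neonatal Fc receptor, differed by -2.78 and the actinin gene Actn2 by -2.66. Second probes of Ppic, Fcgrt and Actn2 passed in the same direction, as did 2 of 3 further Hs3st3b1 probes.

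Genes of naive and lymphoid-homing cells were lower in Treg where they passed: 4 of 13 measured, and none higher, with a median of -0.65. Beside Dapl1 and Ccr7, these were Il7r, the interleukin-7 receptor, with 9.27, 8.97 and 9.20 against 9.89, 9.92 and 10.15, a difference of -0.84 ± 0.13, and the chromatin organiser Satb1, with -0.81 ± 0.20. Il7r was high in both cell types, and 2 of its dimmer probes passed downward as well. Lef1 and Igfbp4 differed by -0.65 ± 0.17 and -1.07 ± 0.27 and missed the test. Satb1 and Ccr7 lost their calls without any 1 of the 6 arrays, with adjusted p up to 0.2 (without Treg replicate 2) and 0.123 (without CD8 replicate 2). Tcf7 and S1pr1 of this list passed the filter on no probe.

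Transcription factors of the lineages divided evenly by their brightest probe, 4 higher and 4 lower in Treg of 31 measured, and Foxp3 passed on another. Higher were Ikzf2 and Maf, given above, Irf4, a factor of activated lymphocytes (1.62 ± 0.28), and Egr2, induced by T cell receptor signals (1.31 ± 0.26). Lower were Eomes and Tbx21 (T-bet), the T-box factors of cytotoxic cells, Id2, an inhibitor of E proteins, and Satb1. Eomes gave 4.39, 4.13 and 4.43 against 6.41, 6.91 and 7.22, a difference of -2.52 ± 0.24, and Tbx21 gave 4.52, 4.87 and 4.83 against 6.46, 6.03 and 7.57, a difference of -1.94 ± 0.40. Of 8 measured CD8 lineage genes, 4 were lower and none higher, namely Cd8b1, Eomes, Tbx21 and Crtam, an adhesion receptor detected on no Treg array and at least 2.69-fold lower. Runx3, a factor of the CD8 lineage, differed by -0.66 ± 0.42 and missed the test. Of 11 measured genes of the CD4 lineage and of help, Cd4, Icos and Trat1 were higher and none lower. Trat1, an adaptor of the T cell receptor, differed by 0.95 ± 0.21. Cells were gated on CD4 and CD8, so the calls of Cd4 and Cd8b1 in these lists reflect the sort. Icos is also counted among the genes of activated and tissue Treg. Tbx21 lost its call without Treg replicate 1 or 3 or CD8 replicate 3 (adjusted p up to 0.073), Egr2 without Treg or CD8 replicate 3 (up to 0.0615), and Trat1 in 4 of 6 cases (up to 0.101, without Treg replicate 3).

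None of 18 measured cell cycle genes passed in either direction, with a median of 0.02. Of 25 measured genes of T cell receptor signalling only Themis, an adaptor of thymocyte selection, passed, with 4.21, 4.73 and 5.08 in Treg against 6.40, 6.41 and 6.51, a difference of -1.77 ± 0.23. The median of that list was -0.05. Glycolysis genes had 2 of 13 higher, the glucose transporter gene Slc2a3 (1.05 ± 0.21) and Pkm (0.70 ± 0.16), and none lower. S100a4, a calcium-binding protein of motile cells, gave 7.81, 8.16 and 8.26 against 6.40, 5.93 and 5.71 and was the only one called of 16 galectin, annexin and S100 genes. Of 13 measured interferon response genes of 19, Ifi27l2a alone passed (1.01 ± 0.18). Pkm lost its call in 5 of 6 cases when single arrays were left out (adjusted p up to 0.108, without Treg replicate 2) and Slc2a3 without Treg replicate 1 or 2 (up to 0.0708).

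The place of Tconv, the other CD4+ population of the spleen, differed between the 2 sides. For 13 of the 15 largest rises the Tconv mean lay nearer to CD8 cells than to Treg, and for the other 2, Cd4 and Cd81, nearer to Treg. Ctla4 and Myo1e had Tconv means of 4.38 and 4.46, close to the CD8 level, while Nrp1, Izumo1r and Ecm1 had 6.20, 5.86 and 6.15, between the groups. For 10 of the 15 largest falls the Tconv mean lay nearer to Treg, among them Xcl1 (4.33), Klra7 (4.18) and Nkg7 (5.52). For the other 5, Dapl1, Hs3st3b1, Pde3b, Ppic and Tmie, it lay nearer to CD8 cells, so that Treg stood apart from both: Hs3st3b1 had a Tconv mean of 9.14, and Tmie one of 8.39. Themis and Id2 showed the same order, with Tconv means of 6.34 and 7.59. These means share the Treg and CD8 arrays with the comparison and are given as a description.

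Markers of cells outside the gates were read on the same arrays. None of the measured markers of B cells (4 of 10), macrophages and monocytes (18 of 18), dendritic cells (6 of 8), neutrophils (4 of 8), erythroid cells (5 of 8) or platelets (4 of 5) was called. The summed intensity of the erythroid markers was 3389 to 11246 on the Treg arrays and 2910 to 8190 on the CD8 arrays, that of the macrophage markers 163 to 1029 and 171 to 679, and that of the B cell markers 70.8 to 238 and 86.2 to 159. These sums overlapped between the groups. Replicate 1 was high in both, as for the monocyte lysozyme gene Lyz1, with 7.51 in Treg and 7.33 in CD8 cells against 4.12 to 5.13 on the other 4 arrays. For NK cells, Ncr1, Klra8 and Gzma passed the filter on no probe, and Klrb1c (NK1.1) gave 4.38, 4.32 and 4.20 in Treg against 4.92, 5.28 and 4.71 in CD8 cells (adjusted p = 0.132). The summed intensity of the 3 measured NK markers, of which CD8+ cells express Eomes and Prf1 themselves, was 89.7 to 138 in Treg and 233 to 482 in CD8 cells. Like the called killer receptor genes other than Klrg1, this sum was higher in CD8 cells than in Treg. Its part in their differences was not tested. Of the melanoma and plasma cell lists only Gpnmb and Xbp1 passed, both higher in Treg, with 1.56 ± 0.31 and 1.36 ± 0.23, and Gpnmb, detected on no CD8 array, was at least 2.65-fold higher. Tyrp1, Dct, Jchain and Mzb1 lay at 4.16 to 4.43 on average in Treg. The melanocyte gene Pmel was detected on all 3 arrays of both groups. It averaged 5.24 in Treg and 5.36 in CD8 cells, a difference of -0.12 ± 0.54. Mitf averaged 4.41 in Treg and 5.05 in CD8 cells, and Mlana and Slc45a2 averaged 4.45 and 4.44 in Treg. Of the T cell list Cd2 was higher by 0.59 ± 0.12 and the other 6 did not pass. In bulk samples, a larger share of cells with a gene and more of its RNA in each cell cannot be told apart.

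Whether the difference between Treg and CD8 cells depends on the tissue was tested as the spleen difference minus the tumour difference, between arrays that share no sample. It was called for 32 genes (0.219%), 13 (0.0892%) with a more positive and 19 (0.130%) with a more negative difference in the spleen, and for 43 probes (0.192%). In the tumour itself 582 genes (3.99%) differed between Treg and CD8 cells, 372 (2.55%) higher and 210 (1.44%) lower in Treg. The 30 largest spleen differences were chosen by a part of this contrast, so their share called cannot be set against that of all genes. Of them 4 were called in this test, those of Izumo1r, Nrp1, Rgs1 and Tbc1d4. Among the others, Tnfrsf4 differed by 4.62 in the spleen and 4.67 in the tumour, Cd4 by 3.94 and 4.13 and Klrd1 by -4.50 and -5.14. The 2 values lay farther apart for Gm4956 (5.63 and 4.02), Cish (4.74 and 3.32) and Actn2 (-2.66 and -0.86, not called in the tumour). Eomes, which is not among the 30, differed by -2.52 and -2.91. Nrp1 depended on the tissue, higher in Treg by 4.83 in the spleen and 2.19 in the tumour, where CD8 cells gave 6.90, 6.52 and 6.29 (difference of differences 2.64 ± 0.26, adjusted p = 0.000453). Izumo1r, too, separated the cells more in the spleen, by 3.53 against 1.58, and tumour Treg gave 6.32, 5.54 and 5.97. Il10 went the other way, with 0.96 in the spleen and 3.46 in the tumour, where Treg gave 7.60, 7.91 and 7.35 (-2.50 ± 0.26, adjusted p = 0.000623). The granzyme gene Gzmk was detected on no Treg array and 2 of 3 CD8 arrays of the spleen. It gave 4.27, 4.21 and 4.21 in spleen Treg against 4.14, 5.51 and 4.77 in spleen CD8 cells. These values overlap, and Gzmk was not called there (adjusted p = 0.613). In the tumour it differed by -3.92. Mmp9 and Fam83g were not called in the spleen, where Mmp9 differed by 0.08 and Fam83g was detected on 2 of 3 Treg arrays and no CD8 array, and were higher in tumour Treg than in tumour CD8 cells by 2.99 and 3.89. A gene of the opposite kind, Rgcc, a regulator of the cell cycle, differed by -2.66 in the spleen, with 4.75, 5.11 and 5.07 against 7.73, 7.77 and 7.41, and by 0.19 in the tumour.

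**Figure D4:**
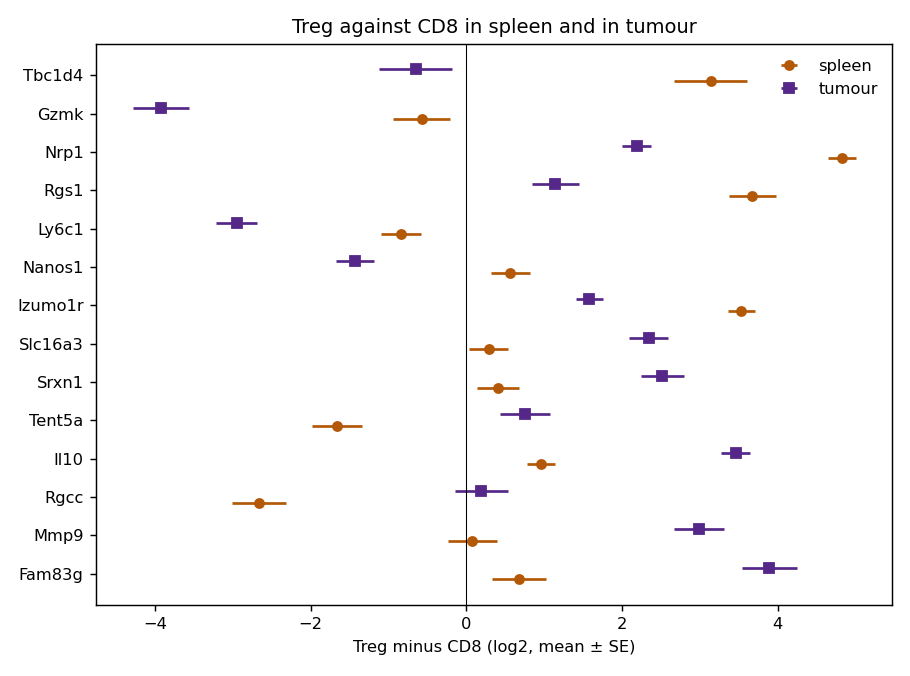
Treg minus CD8 difference (log2, mean ± SE, 3 arrays a group) in the spleen (circles) and in the tumour (squares) for the 14 named genes whose 2 differences differed past the test. Nrp1, Izumo1r, Tbc1d4 and Rgs1 lie farther right in the spleen, and Il10, Mmp9, Fam83g, Slc16a3 and Srxn1 farther right in the tumour.

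Leaving out single spleen arrays moved these counts. Without Treg replicate 1, 2 or 3 the difference of differences was called for 22, 25 and 19 probes. Without all arrays of replicate 1, 2 or 3 it was called for 1, 0 and 3 probes. For replicate 2 there were 1704 probes at an unadjusted p under 0.05. Tumour arrays were not left out singly. Fam83g, Gzmk, Il10, Izumo1r and Nrp1 kept their calls without each of the 6 spleen arrays, but Izumo1r lost its call with median scaling (adjusted p = 0.0534), and Fam83g and Gzmk with only the arrays compared (0.0940 each). Tbc1d4, Nanos1 and Slc16a3 lost their calls without any 1 of the 6 arrays, with adjusted p up to 0.0874, 0.0779 and 0.0888. Rgcc, Srxn1 and Tent5a lost theirs in 5 of 6 cases (up to 0.0845, 0.107 and 0.123), Rgs1 in 4 (up to 0.0845), Ly6c1 without Treg replicate 1 or 3 (up to 0.0874) and Mmp9 without Treg replicate 3 (0.0506).

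Itgae, the CD103 chain of the integrin that binds E-cadherin, changed its direction between tissues. It is counted among Treg core genes, yet its brightest probe gave 8.18, 6.68 and 7.82 in spleen Treg against 9.89, 8.66 and 8.81 in spleen CD8 cells, a difference of -1.56 ± 0.59 that missed the test (adjusted p = 0.26). Of its 5 dimmer probes 2 passed downward, with 5.22, 5.36 and 5.03 against 6.26, 6.19 and 5.95 and a difference of -0.93 ± 0.19 for the first, and -1.05 ± 0.24 for the second. In the tumour these 3 probes differed by 2.75, 1.19 and 1.13, so Treg were higher there. The difference of differences was -2.12 ± 0.28 (adjusted p = 0.00357) and -2.18 ± 0.34 (adjusted p = 0.0178) for the dimmer probes and -4.31 ± 0.84 (adjusted p = 0.0547) for the brightest. Tconv of the spleen lay near the floor on these dimmer probes, at 4.09 to 4.23. The separating Foxp3 probe differed by 4.06 in the spleen and 5.08 in the tumour, a difference of differences of -1.02 ± 0.18.

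**Figure D5:**
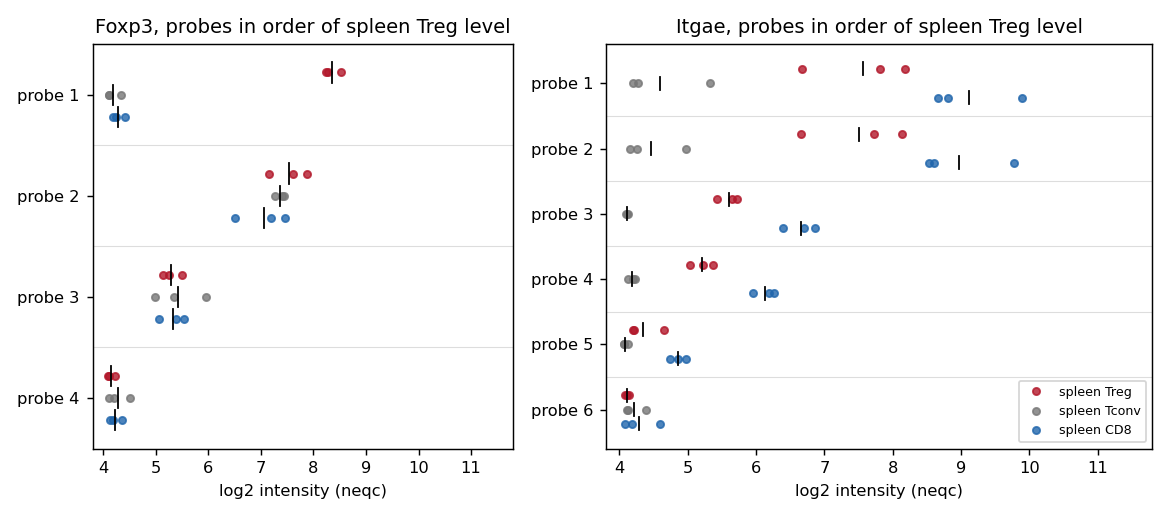
Log2 intensity (horizontal axis) on each spleen array for the 4 probes of Foxp3 (left) and the 6 of Itgae (right), in order of their level in Treg, with points for arrays, 3 in each group, and ticks for group means. On 1 Foxp3 probe Treg stand apart from both other groups, and on the first 4 Itgae probes the mean of CD8 cells lies above that of Treg and Tconv lie lowest.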

How the data were processed

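For 46237 probes on each array the authors deposited bead intensities that were not normalized, with detection p-values, per the file headers. The scanner software is not stated. The authors also deposited a normalized table of linear intensity values, used as an alternative. Per the labels' protocols, 2.5 ng of RNA was amplified for each array. Probe names came from the platform annotation (35784 probes with 1 name, 10453 with none), updated through RefSeq for 28620 by Entrez number and 2637 by accession.

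The intensities were passed through limma 3.58.1 in R 4.3.3 with its function neqc, which took the background from the detection p-values, added an offset of 16, quantile normalized and took log2. All 18 arrays entered 1 fit with 6 group means (lmFit, eBayes, 12 residual degrees of freedom), and p-values were adjusted by Benjamini-Hochberg over 22409 probes. The script was tested on simulated data. The offset compresses differences of dim genes, and the number of arrays limits the precision. The genes given are the sorting markers, the 15 largest rises and falls, from each list up to 6 genes of lowest p, the 6 largest differences of differences each way and the 2 genes on each side of the threshold. Gene lists, members and rules were chosen with earlier results of these data known.

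Replicate numbers pair the samples: per the file headers each number is 1 BeadChip with an array of every group. The mean residual correlation was 0.0435 for arrays of the same number (0.115, 0.0426 and 0.0837 between spleen Treg and CD8), and -0.0214 for arrays of different number and group. A replicate block was an alternative, as were the normalization, background correction, filter, features adjusted over, arrays in the fit, moderation and leaving out arrays.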

Additional observations from a re-analysis of the deposited data

Results flagged for a closer look

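These genes stood out because the difference between Treg and CD8 cells was another one in the spleen than in the tumour, by the test of that difference itself in limma (spleen difference minus tumour difference, adjusted p under 0.05). More positive in the spleen were Tbc1d4 with 3.79 ± 0.67, Gzmk with 3.35 ± 0.52, Nrp1 with 2.64 ± 0.26, Rgs1 with 2.53 ± 0.43, Ly6c1 with 2.11 ± 0.37, Nanos1 with 1.99 ± 0.35 and Izumo1r with 1.95 ± 0.24. Of these, Tbc1d4 separated the spleen cells by 3.14 and gave -0.65 in the tumour, where it was not called. Ly6c1, a surface protein of memory CD8+ cells in the mouse, differed by -0.84 in the spleen, not past the test, and by -2.95 in the tumour. Nanos1 differed by 0.57 in the spleen, not past the test, and by -1.43 in the tumour.

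More negative in the spleen were Fam83g with -3.22 ± 0.49, Mmp9 with -2.91 ± 0.45, Rgcc with -2.86 ± 0.49, Il10 with -2.50 ± 0.26, Tent5a with -2.42 ± 0.45, Srxn1 with -2.11 ± 0.38 and Slc16a3 with -2.06 ± 0.36. Slc16a3, a lactate transporter gene, and Srxn1, an antioxidant enzyme gene, lay near the floor in both spleen groups and differed by 2.34 and 2.52 in the tumour. Tent5a differed by -1.66 in the spleen and gave 0.76 in the tumour, which missed the test. Single probes met the same rule: the separating Foxp3 probe with -1.02 ± 0.18, and Itgae probes with -2.12 ± 0.28 and -2.18 ± 0.34, where the spleen and tumour differences had opposite signs. Groups of 3 arrays are too small for the check on single outlying samples.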

How the results depend on the processing

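No named gene called in the spleen comparison changed its direction under any alternative. Of the 81 named genes called, 58 kept their call without each of the 6 arrays in turn, while 59, 40 and 39 were still called without all arrays of replicate 1, 2 and 3 and 53 with only the arrays compared. Calls lost in that last fit include those of Ccr4, Ccr9, Crem, Crtam, Gzmm, Id2, Il7r, Itgb8 and Tbx21. With the replicate block, 518 probes and 404 genes were called, and 46 probes in the difference of differences; the block ended the call of Art4, added Stat2 and Tnfrsf1b and changed no other named call. The 514 called probes became 338 with median scaling and 258 with only the arrays compared, and the 388 genes became 203 with only the arrays compared, a fit with fewer residual degrees of freedom. Median scaling moved the median of all probes to -0.11 and ended 18 named calls, among them Stat3, Stat5a, Il2rb, Srgn, Ccr7 and Satb1. Leaving out single arrays or all arrays of 1 number gave 135 to 497 probes and 110 to 367 genes. The lowest counts were those without replicate 3, with 1 array fewer in every group, and 329 and 339 probes were called without Treg replicates 2 and 3. Calls of 5 named genes ended without background correction (Art4, Ccr9, Crem, Il10 and Il1r2), of 5 with the deposited value table (Art4, Ccr9, Il10, Il1r2 and Tbx21), of 5 with trended robust moderation (Art4, Hras, Il2rb, Srgn and Trat1), of 6 without the filter (Art4, Ccr7, Cd160, Il1r2, Satb1 and Tgfbr1), of 3 with detection on all 3 arrays of a group (Art4, Hras and Stat3) and of 2 with offset 50 (Il10 and Il1r2).

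The 43 probes of the difference of differences became 68 with offset 50, 28 when a probe had to be detected on all 3 arrays of a spleen group, 26 with only the arrays compared, and 0 to 32 without single arrays or numbers. The 0 came without replicate 2 in limma, with 1704 probes at an unadjusted p under 0.05. The share of more positive calls was 41.9% and fell to 14.8% with median scaling, with 9 more positive and 52 more negative probes, and was 29.7% with the deposited value table; the cause was not tested. Detection of 38.0 to 45.2 percent of probes limits dim genes, whose differences are compressed toward 0.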

Other observations

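The genes nearest to the threshold were Hras and Art4 inside it, both with an adjusted p of 0.0495 and differences of -0.63 ± 0.16 and -0.72 ± 0.18, and Tnfrsf13b and Cd69 just outside, with 1.41 ± 0.35 and 0.64 ± 0.16. Tnfrsf13b, the receptor TACI better known from B cells, gave 7.00, 7.23 and 7.58 in spleen Treg against 6.01, 5.30 and 6.28 in CD8 cells, and 6.48 on average in Tconv. Cd69, an early activation marker, gave 8.06, 7.49 and 7.84 against 7.06, 7.00 and 7.41, with no overlap between the groups. At an unadjusted p under 0.05 there were 1809 genes.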
